A study of Mus musculus with 10 samples.

Results

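The genes described here are 37 that act in the repair of DNA or in the checkpoint signalling that halts division while DNA is damaged. They were chosen by name from textbook repair pathways, with earlier results of these data known. Of the 37, 36 have at least 1 probe set (a group of probes read as 1 measurement) assigned to them alone on the Affymetrix MOE430_2 mouse array, out of 18193 genes so represented. Xrcc2 is not analysed here. The study compared natural killer (NK) cells, lymphocytes that kill infected or transformed cells, before and after stimulation with interleukin-15 (IL-15), a cytokine on which NK cells depend for survival and growth. NK cells were flow sorted as NK1.1+CD3- cells from spleens of wild-type C57Bl/6 mice, and 3 samples were lysed at rest while 3 were lysed after 24 h with 100 ng/mL of recombinant mouse IL-15. Unsorted splenocytes at rest, whose strain is not given in the sources used here, were measured on 4 chips that hold 2 biological samples. Cells cultured without IL-15 are not analysed here, so 24 h in culture and IL-15 itself cannot be told apart. RNA of both NK groups was amplified in 2 cycles and splenocyte RNA in 1 cycle, so amplification and cell source cannot be told apart in any comparison with splenocytes.

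Each array had been scaled by the authors to the same mean, so signals are relative levels within an array. A signal below 179.9 units, the median over arrays of each array's 40th percentile, was set to that floor before log2 was taken. On resting NK, IL-15 NK and splenocyte arrays, 57.8 to 61.7%, 51.1 to 56.5% and 61.2 to 62.4% of probe sets lay above it. All 10 NK marker genes on the array were higher in resting NK cells than in splenocytes. The summed signal of 11 B cell markers ranged from 11309 to 34867 over resting NK arrays, from 4174 to 6021 over IL-15 arrays and from 273747 to 339708 over splenocyte chips, and 6 of them (Cd79a, Ms4a1, Blnk, Cr2, Fcrla and Ly6d) were at the floor on all IL-15 arrays. The sum of 11 macrophage markers lay between 11426 and 30254 at rest, with C1qa at the floor on all 3 arrays, between 4732 and 5278 with IL-15, with Lyz1, Mpeg1, C1qa, C1qb, C1qc and Cd14 at the floor, and between 197774 and 229462 on splenocyte chips. The ratio of 3′ to 5′ probe sets for Gapdh, a sign of how complete the labelled RNA is, lay between 5.88 and 9.54 at rest, between 2.9 and 3.81 with IL-15 and between 1 and 1.39 for splenocytes. For Actb it lay between 2.27 and 6.51 at rest, between 1.28 and 1.49 with IL-15 and between 1.34 and 1.59 for splenocytes. In bulk samples, fewer cells of a type and less RNA per cell cannot be told apart.

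Cells mend broken DNA in several ways. Homologous recombination copies the lost sequence from the sister chromatid and therefore works mainly after replication, whereas end joining seals broken ends directly and works throughout the cycle. The Fanconi anaemia proteins clear crosslinks between the strands, mismatch repair corrects copying errors, and base excision removes damaged or misplaced bases. The kinases Atm and Atr sense breaks and stalled forks and pass the signal to Chek2 and Chek1, which stop the cycle. Lymphocytes that enter division under a cytokine are known to raise genes of replication and of repair at the fork.

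Many repair genes rose after 24 h with IL-15, and the 2 largest differences belonged to genes of homologous recombination. Of the 35 genes that were above the floor on enough arrays to be tested, 20 rose and 0 fell in IL-15 NK cells against resting NK cells (limma with Benjamini-Hochberg adjustment over 11433 genes, threshold 0.05). An unadjusted p under 0.05 was found for 25 of the 35, and for 4321 of all 11433. Over all genes tested, 14.2% were called higher and 12.1% lower. The median difference over the 36 genes was 0.87 on the log2 scale, from -1.21 to 4.66, beside 0.00 over all genes with a probe set. The rise was at least 2-fold for 15 genes, at least 4-fold for 8 and at least 8-fold for 4 (Rad51ap1, Rad54l, Chek1 and Exo1). Of all 11433 genes tested, 1096 were called higher by at least 2-fold. All 3 IL-15 samples lay above all 3 resting samples for 24 of the 35, where 20.5% of all genes tested did so. The 4 of these that did not pass the test were Xrcc3, Atr, Atrip and Pms2. In the other direction the groups lay apart for 1 gene, Trp53bp1, where 21.6% of all genes tested did so.

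**Figure D1:**
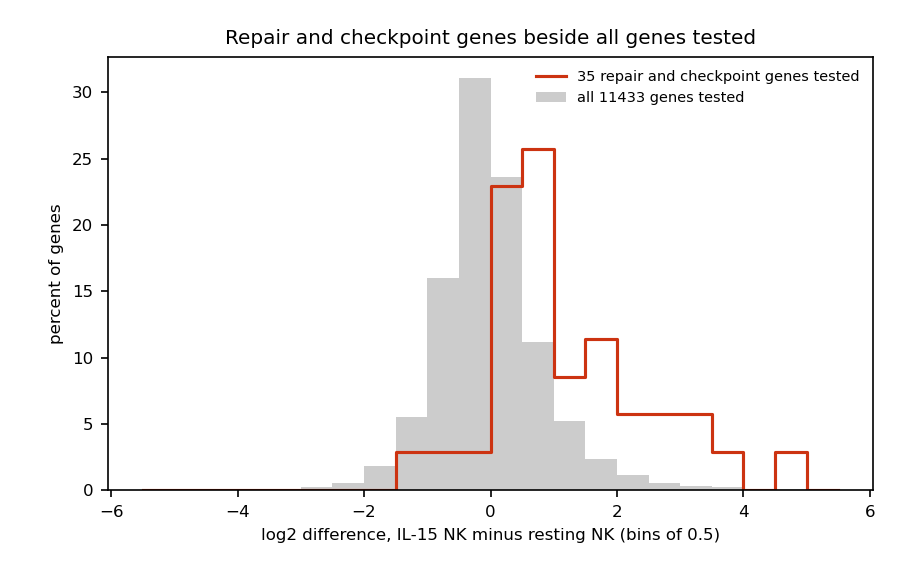
The histogram shows log2 differences, IL-15 minus resting (x axis), as the percent of genes in each bin (y axis), for the 35 repair and checkpoint genes tested and for all 11433 genes tested. The repair and checkpoint genes have a median of 0.87 over the 36 with a probe set and reach 4.66, while the median of all genes tested is -0.09.

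**Figure D2:**
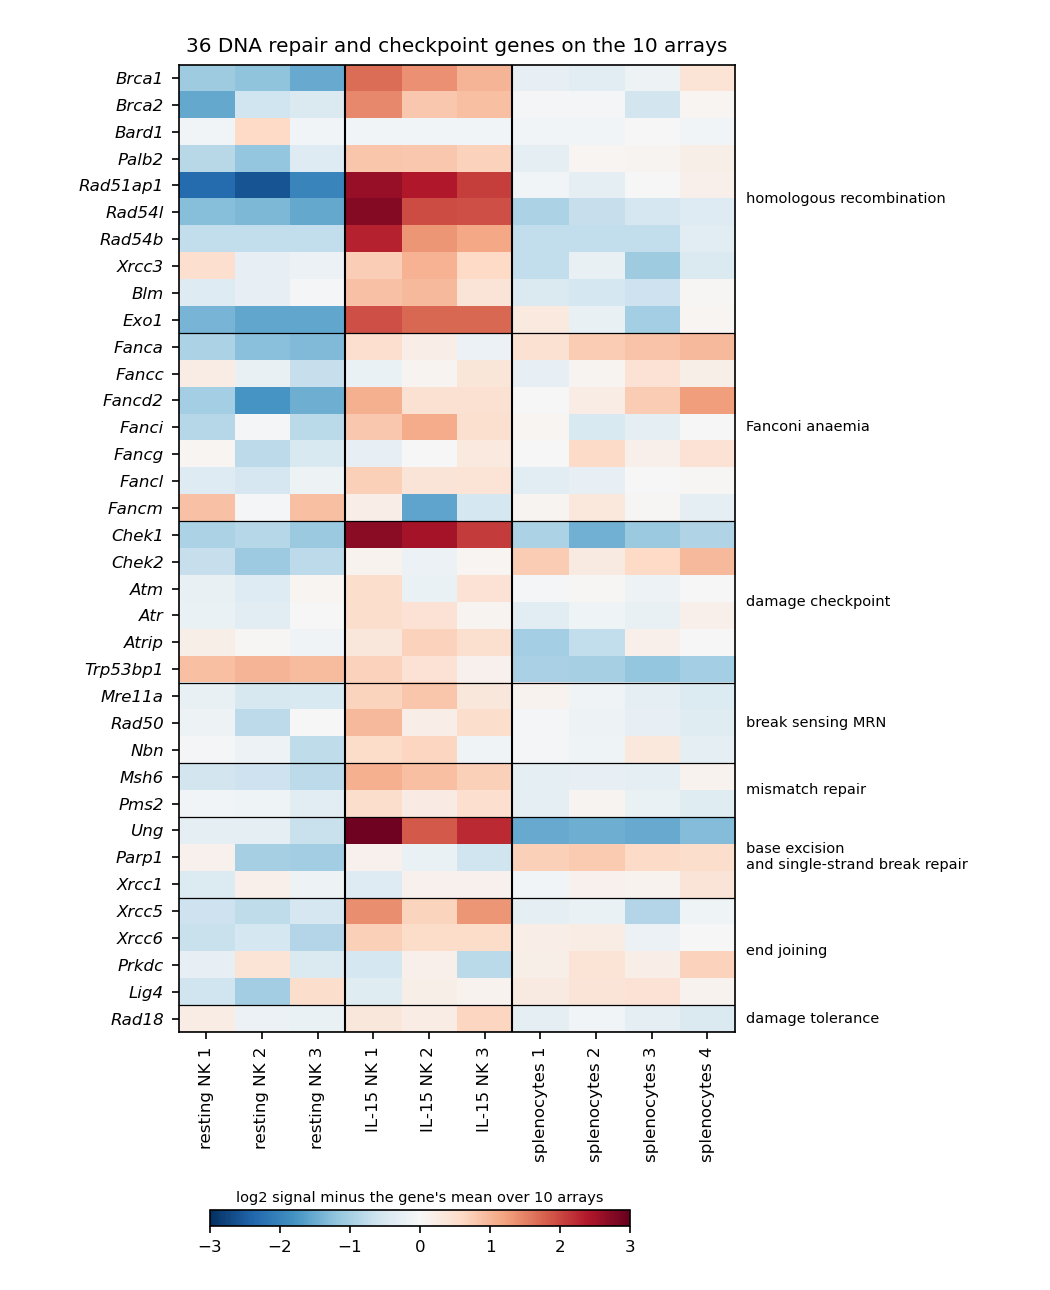
Each row is 1 of 36 repair or checkpoint genes, grouped by role, and each column 1 of the 10 arrays; colour gives the log2 signal minus the gene's own mean over the arrays, with signals below the floor set to it. The rows of Rad51ap1, Rad54l, Chek1 and Ung are dark red on the 3 IL-15 arrays. The row of Trp53bp1 is red on the resting NK arrays, paler on the IL-15 arrays and blue on the 4 splenocyte chips.

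The genes Rad51ap1, Rad54l, Chek1 and Ung are shown here with the 100 bases before their start sites. They had the 4 largest rises with IL-15 among the genes whose promoter sequence was used here. Exo1 rose more than Ung (log2 difference 3.29 against 2.73), but its promoter sequence was not used. The 4 genes shown are also the 4 furthest above splenocytes after IL-15. The sequences are from RefSeq on build GRCm38.p6, 5′ to 3′ on the gene's strand, at chr6:126939588-126939687 (minus) for Rad51ap1, chr4:116123691-116123790 (minus) for Rad54l, chr9:36726659-36726758 (minus) for Chek1 and chr5:114130335-114130434 (plus) for Ung. Capitals mark CCAAT or its reverse complement, the word bound by the factor NF-Y. Rad51ap1 and Rad54l each hold 1 such word in these bases, and Chek1 and Ung hold 0.
Rad51ap1: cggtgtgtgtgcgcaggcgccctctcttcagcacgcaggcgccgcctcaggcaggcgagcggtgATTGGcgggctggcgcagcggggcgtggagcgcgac
Rad54l: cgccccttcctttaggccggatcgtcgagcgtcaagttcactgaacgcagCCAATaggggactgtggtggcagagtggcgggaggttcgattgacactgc
Chek1: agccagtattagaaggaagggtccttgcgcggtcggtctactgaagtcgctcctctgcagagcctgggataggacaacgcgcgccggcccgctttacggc
Ung: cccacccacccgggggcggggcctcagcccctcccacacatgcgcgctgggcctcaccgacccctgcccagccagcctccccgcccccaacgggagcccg

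Promoter windows from 250 bases before to 50 bases after the start were found in the RefSeq table for 30 of the 37 genes. Those of Rad54b, Xrcc2, Exo1, Fancd2, Rad50, Nbn and Prkdc were not used here. Words of the kinds known from promoters of cell-cycle genes were searched on both strands, and 0 matches of different kinds overlapped each other. An E2F-type word, any of TTTCCCGC, TTTGGCGC, TTTCGCGC and TTTGCCGC, was present in 6 of 30 windows (20%), beside 4.79% of 9308 genes tested with a window and 2.26% of all 32851 windows. Of genes that rose with IL-15, 4 of 16 with a window held one (25%: Brca2, Chek2, Msh6 and Xrcc6), as did 8.6% of all 1337 genes that rose. Of genes tested that did not pass, 1 of 13 did (7.69%, Fancg). CCAAT was present in 18 of 30 windows (60%), in 11 of the 16 that rose (68.8%) and in 7 of the 13 that did not pass (53.8%), beside 42.7% of genes tested and 37.4% of all windows. TTTGAA or TTCGAA, the core of the element called CHR, was present in 2 of 30 windows (6.67%, Bard1 and Atr), in 0 of the 16 that rose, and in 16.5% of genes tested and 19.2% of all windows. These matches describe letters in a window and say nothing of a factor's binding.

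The 30 bases around each E2F-type match are shown because all 6 matches proved to be the same word, TTTCCCGC or its reverse complement, in capitals. They lie on GRCm38.p6 at chr5:150522442-150522471 (plus) for Brca2, chr1:71103163-71103192 (minus) for Bard1, chr4:43010335-43010364 (minus) for Fancg, chr5:110839820-110839849 (plus) for Chek2, chr17:87975054-87975083 (plus) for Msh6 and chr15:82016312-82016341 (plus) for Xrcc6. The match in Msh6 begins 16 bases after the annotated start, and the others lie 46 to 209 bases before it.
Brca2: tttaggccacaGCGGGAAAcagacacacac
Bard1: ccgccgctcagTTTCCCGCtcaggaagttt
Fancg: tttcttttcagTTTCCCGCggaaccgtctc
Chek2: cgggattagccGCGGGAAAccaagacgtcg
Msh6: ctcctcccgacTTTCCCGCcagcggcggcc
Xrcc6: agggggtggaaGCGGGAAAtgcgagtgggc

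In homologous recombination 8 of 9 genes tested rose, with a median log2 difference of 2.12 over the 10 genes with a probe set. Rad51ap1, which takes part in strand exchange during recombination, gave signals of 358, 297 and 448 in the 3 resting samples and 10826, 9443 and 7533 in the 3 IL-15 samples. Rad54l, a motor protein that remodels DNA during strand exchange, read 697, 666 and 584 at rest and 11373, 6554 and 6414 with IL-15. Exo1, the nuclease that lengthens the single-stranded end, read 200, 164 and 29 at rest, with 1 of 3 arrays above the floor, and 2020, 1731 and 1734 with IL-15. For these genes the lowest IL-15 sample lay far above the highest resting sample, and the spread within either group was small against the gap. Rad51ap1 was 25.3-fold higher (log2 difference 4.66 ± 0.26 SE, n = 3 per group, limma adjusted p = 7.0e-06). Rad54l was 12.1-fold higher (3.59 ± 0.27, limma adjusted p = 2.2e-05). For Exo1 the rise was at least 9.78-fold, a bound because of the floored resting arrays (limma adjusted p = 3.3e-05).

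Rad54b, Brca1, Brca2, Palb2 and Blm also rose. Rad54b, a relative of Rad54l, was below the floor in all 3 resting samples, at 30, 81 and 49, and read 1500, 751 and 672 with IL-15, a rise of at least 5.07-fold (limma adjusted p = 8.7e-04). Brca1, a tumour suppressor that recruits the recombination machinery to breaks, was 6.13-fold higher (limma adjusted p = 8.8e-05). Brca2, a tumour suppressor that acts in recombination, was 3.74-fold higher, and Palb2, which joins Brca1 to Brca2, was 2.97-fold higher (both limma adjusted p = 0.0028). The Brca2 call did not hold when all genes were tested without the filter on low signals. Blm, a helicase that dissolves recombination intermediates, was 1.95-fold higher (limma adjusted p = 0.013), a call that also needed the filter and did not pass without IL-15 sample 1 or without sample 2. Xrcc3, another gene of recombination, had a log2 difference of 0.77 (limma adjusted p = 0.094), and passed as higher without resting sample 1. Bard1, the partner of Brca1, was above the floor on 1 resting array, at 288, on 0 IL-15 arrays and on 1 splenocyte chip, at 191, and was not tested.

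Of 7 Fanconi anaemia genes 4 rose. Fancd2, which is ubiquitinated at crosslinks together with Fanci, read 302, 61 and 223 at rest, with 2 of 3 arrays above the floor, and 1294, 851 and 846 with IL-15. Fanci read 431, 738 and 442 at rest and 1352, 1685 and 1074 with IL-15. Fanca, part of the core complex, read 835, 681 and 649 at rest and 2306, 1853 and 1447 with IL-15. In each of these genes the groups lay apart, with gaps narrower than those of the leading recombination genes. The rise was at least 4.26-fold for Fancd2 (limma adjusted p = 0.0011), and Fanci was 2.59-fold (log2 difference 1.37 ± 0.32 SE, limma adjusted p = 0.01) and Fanca 2.56-fold higher (1.35 ± 0.28, limma adjusted p = 0.0054). The Fanci call did not hold without the filter on low signals. Fancl, the ligase that attaches ubiquitin to Fancd2, was 1.8-fold higher (limma adjusted p = 0.0089), a call that did not hold when all probe sets of a gene were averaged. Fancc and Fancg, of the same core complex, stood at log2 differences of 0.31 and 0.41 and did not pass (adjusted p = 0.52 and 0.37 by limma). Fancm, the translocase that recognises the stalled fork, had the lowest difference of all 36 genes, -1.21 ± 0.46 (limma adjusted p = 0.077), with an IL-15 sample at 742 above the lowest resting sample at 623. Fancm passed as lower without IL-15 sample 1 or without resting sample 2.

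Of 6 checkpoint genes, 2 rose, both of them kinases that act downstream. Chek1, the kinase that Atr activates at stalled forks, read 883, 933 and 780 at rest and 11167, 9530 and 7317 with IL-15, a 10.7-fold rise (log2 difference 3.41 ± 0.22 SE, limma adjusted p = 1.5e-05). Both of its other tested probe sets rose as well, by 3.25 and 3.62 on the log2 scale. Chek2, the kinase that Atm activates at breaks, read 828, 624 and 775 at rest and 1427, 1186 and 1393 with IL-15, a 1.81-fold rise (limma adjusted p = 0.036). The Chek2 groups did not overlap, but the call did not pass without any 1 of the 6 arrays, without the filter on low signals, or with the floor at the 20th percentile. The difference between the kinases was not tested, since each is read by its own probes. Atm, Atr and the Atr partner Atrip stood at log2 differences of 0.44, 0.52 and 0.46 and did not pass (adjusted p = 0.21, 0.096 and 0.24 by limma). Trp53bp1, which protects broken ends from being cut back, read 21491, 22958 and 22020 at rest and 18490, 15520 and 12527 with IL-15, so that all 3 IL-15 samples were lower. Its log2 difference of -0.53 ± 0.18 did not pass (limma adjusted p = 0.056), though it passed as lower without IL-15 sample 1, and also under 4 other settings. Of the 5 other Trp53bp1 probe sets, 1 was lower with IL-15, by a log2 difference of -1.38. The other 4 did not pass, with differences from -0.65 to -0.05.

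**Figure D3:**
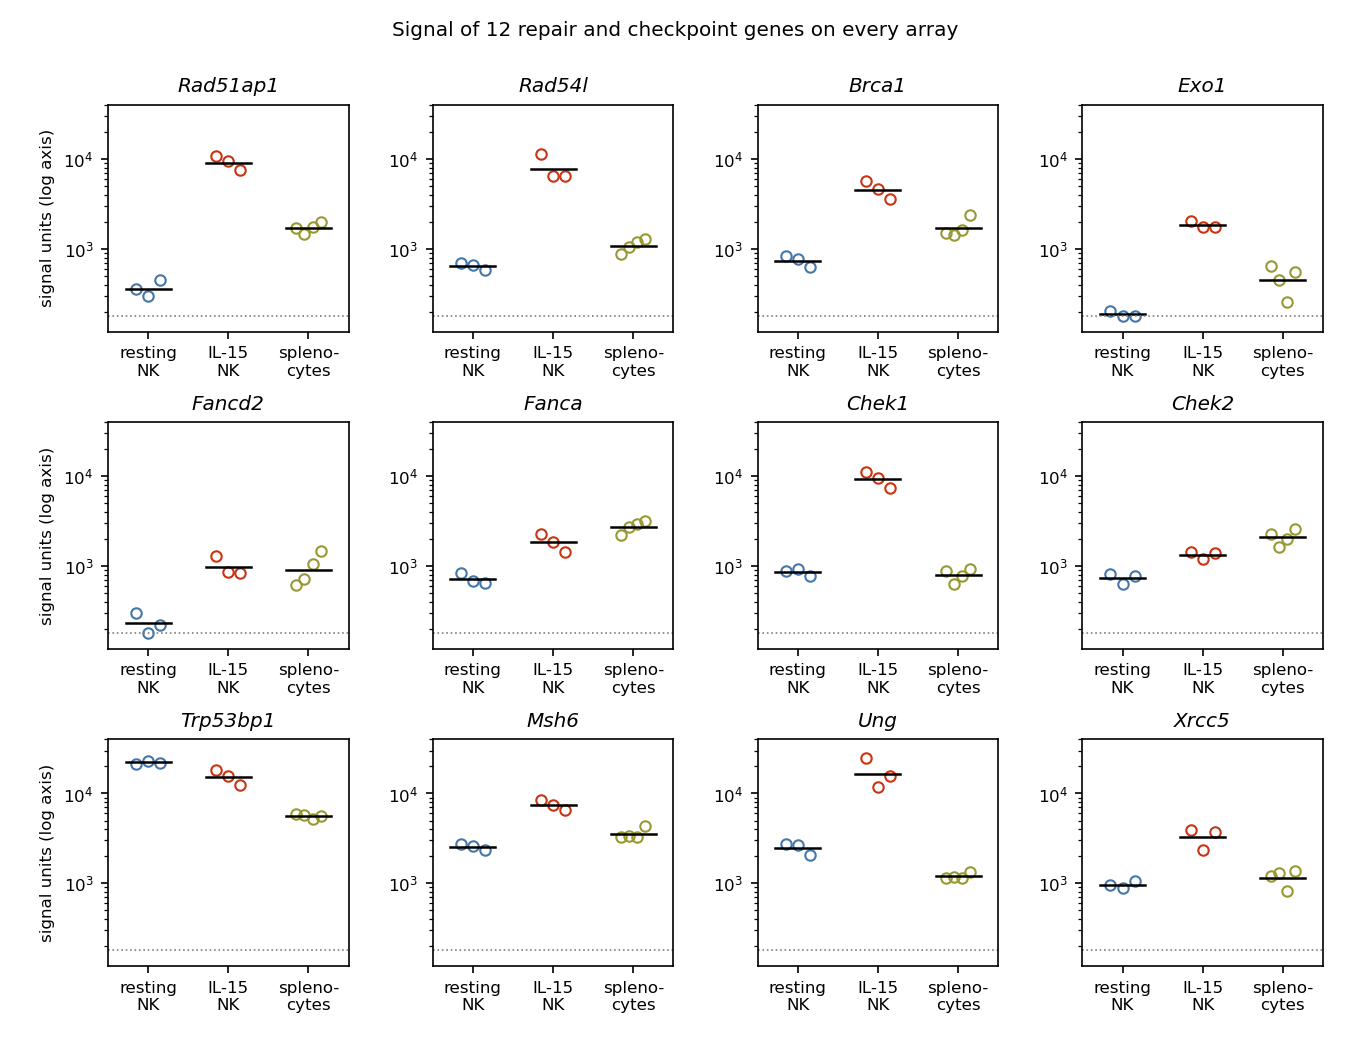
Each panel shows 1 gene, with its signal on a log axis (y) for each array of resting NK cells, IL-15 NK cells and splenocytes (x); points are arrays, black bars are geometric means, and the dotted line is the floor of 179.9, to which lower signals were set. For Rad51ap1 the resting points lie between 297 and 448 and the IL-15 points between 7533 and 10826, while for Trp53bp1 all NK points lie above the 4 splenocyte points.

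The Mre11a, Rad50 and Nbn proteins form the complex that first grips a broken end. Mre11a, its nuclease, read 1631, 1360 and 1390 at rest and 3019, 3384 and 2402 with IL-15, and Rad50, its tether, read 3193, 2046 and 3489 at rest and 6979, 4075 and 5112 with IL-15. Neither gene's groups overlapped, though the gap for Rad50 was narrow. Mre11a was 2-fold higher (limma adjusted p = 0.01) and Rad50 1.85-fold higher (limma adjusted p = 0.034). The call for Rad50 was lost without IL-15 sample 1 or 3, without resting sample 1 or 2, and under 3 other settings. That for Mre11a was lost when its probe sets were averaged. Nbn, which links the complex to Atm, differed by 0.68 (log2) and did not pass (adjusted p = 0.14 by limma).

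In mismatch repair, Msh6, which recognises mispaired bases, read 2727, 2591 and 2332 at rest and 8457, 7513 and 6587 with IL-15. It was 2.94-fold higher with no overlap (log2 difference 1.56 ± 0.19 SE, limma adjusted p = 3.1e-04). Pms2, which acts after recognition, differed by 0.61 (log2) and did not pass (adjusted p = 0.064 by limma). In base excision, Ung, the glycosylase that removes uracil from DNA, read 2741, 2696 and 2068 at rest and 24688, 11640 and 15545 with IL-15. Even the lowest IL-15 sample was well above every resting sample, although the IL-15 samples themselves were widely spread. Ung was 6.64-fold higher (log2 difference 2.73 ± 0.27, limma adjusted p = 9.1e-05). Parp1, which marks nicked strands with poly(ADP-ribose), had a log2 difference of 0.42 (limma adjusted p = 0.37) and read 9610 in resting sample 1 against 4401 and 4238 in the other resting samples. Without that resting sample Parp1 passed as higher. Xrcc1, the scaffold of single-strand break repair, had the difference nearest 0 of the tested genes, 0.10 (limma adjusted p = 0.82).

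Of 4 end joining genes, the 2 that encode the end-binding dimer rose. Xrcc5 (Ku80) read 961, 881 and 1055 at rest and 3934, 2366 and 3710 with IL-15, and Xrcc6 (Ku70) read 1886, 2085 and 1615 at rest and 4928, 4402 and 4404 with IL-15. In both subunits of Ku, which caps broken ends, the groups did not overlap. Xrcc5 was 3.38-fold higher (log2 difference 1.76 ± 0.26 SE, limma adjusted p = 0.001) and Xrcc6 2.47-fold higher (1.30 ± 0.20, limma adjusted p = 0.0013). Prkdc, the kinase that Ku recruits, and Lig4, the ligase that seals the ends, stood at log2 differences of -0.31 and 0.34 and did not pass (adjusted p = 0.51 and 0.58 by limma). Rad18, a ubiquitin ligase of damage tolerance at stalled forks, read 1791, 1352 and 1346 at rest and 1941, 1789 and 2402 with IL-15. Its groups overlapped and the log2 difference of 0.45 did not pass (adjusted p = 0.2 by limma), although 2 of its 3 other probe sets rose, by 1.44 and 0.95.

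**Figure D4:**
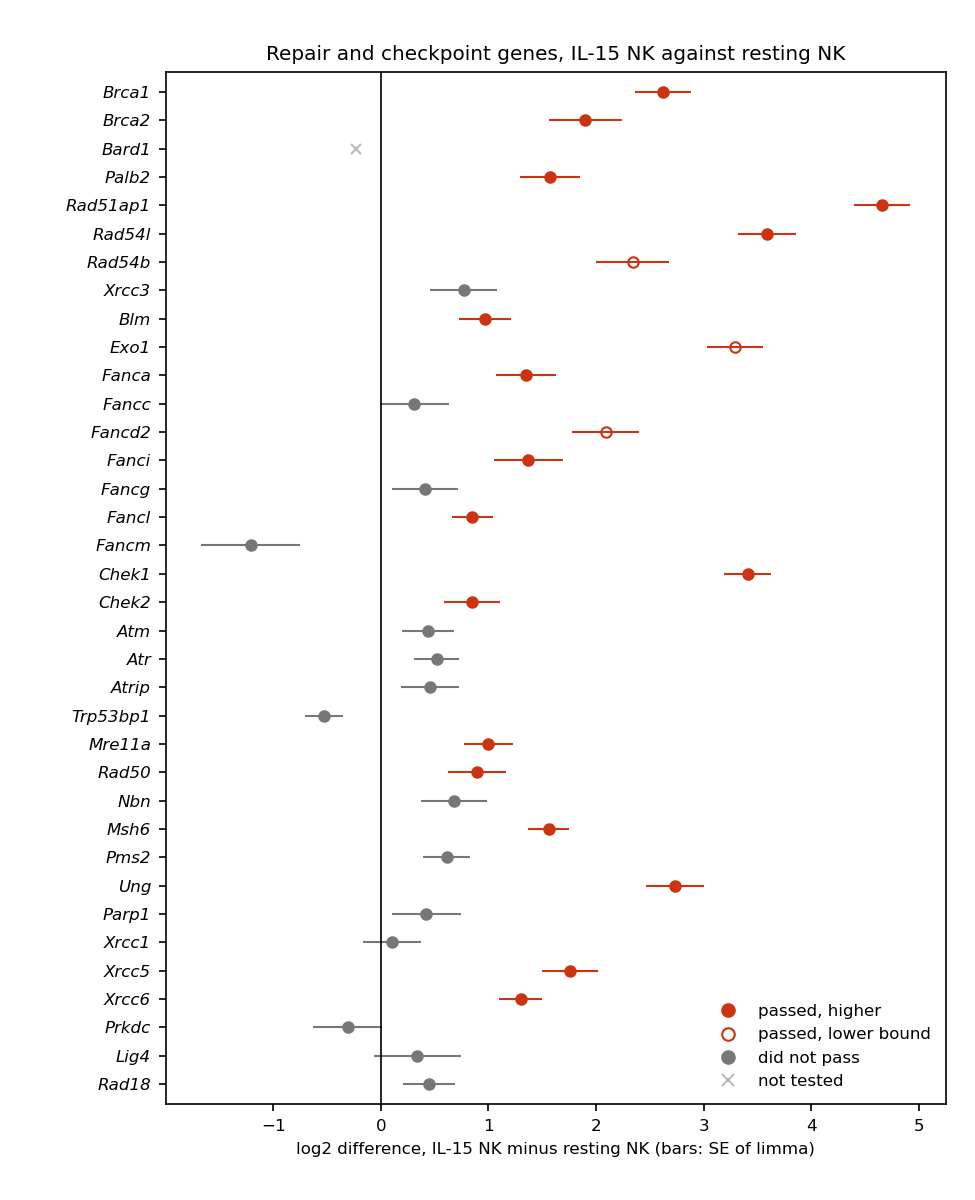
Points give each gene's log2 difference, IL-15 minus resting (x axis), with bars of 1 SE, and the genes are listed by role (y axis); colour marks whether the limma test passed. All 20 genes that passed lie to the right of 0, from 0.85 to 4.66, and the lowest point, Fancm at -1.21, did not pass.

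Markers of proliferation were higher with IL-15 as well. The summed signal of 11 proliferation genes lay between 48187 and 65750 at rest, between 205611 and 269598 with IL-15 and between 156567 and 191232 for splenocytes, and all 11 rose with IL-15 (median log2 difference 2.71). Within the IL-15 group that sum was 269598, 238518 and 205611 in samples 1, 2 and 3. Sample 1 also held the highest value for 17 of the 20 risen genes and sample 3 the lowest for 12. Among the splenocyte chips, chip 4 was highest for 15 of the 20 and had the highest proliferation sum, 191232. Chip 1 had nearly the same sum, 188505, but was highest for 4 of the 20 and lowest for 6. Genes read on the same array are not independent of each other, so these counts are descriptions only. At rest the order was different: sample 2 had the highest proliferation sum, 65750 beside 53977 and 48187, but the highest value for 3 of the 20 genes and the lowest for 9. The part of proliferation in the rise of the repair genes was not tested. Over the 36 genes the median SD between samples was 0.23 (log2) at rest, largest for Lig4 at 0.82, and 0.30 with IL-15, largest for Fancm at 0.90.

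Further repair genes outside the 37 were counted from a list of 107 names, 93 of them on the array. Of 90 tested, 26 rose (28.9%) and 2 fell (2.22%) with IL-15, beside 14.2% and 12.1% of all genes tested. The median log2 difference over the 93 was 0.13, beside 0.00 over all genes with a probe set. Clspn, the adaptor through which Atr activates Chek1, read 567, 374 and 352 at rest and 7103, 6086 and 4141 with IL-15, a 13.4-fold rise (limma adjusted p = 3.3e-05). Timeless and Tipin, which travel with the fork and stabilise it, were 5.62-fold and 5.1-fold higher (limma adjusted p = 7.6e-05 and 4.8e-05). Wee1, the kinase that delays mitosis, was 5.16-fold higher and Neil3, a glycosylase, at least 6.16-fold higher with 1 of 3 resting arrays above the floor (limma adjusted p = 6.7e-04 and 1.8e-04). The genes that fell were Rad51d, a gene of recombination, at 1526, 1471 and 2215 against 894, 885 and 777 (log2 difference -1.01, limma adjusted p = 0.019), and Rev3l, a translesion polymerase subunit, with a log2 difference of -0.59 (limma adjusted p = 0.047).

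Against splenocytes, resting NK cells held less of 9 repair genes and more of 2, among 34 tested. Over all 12938 genes tested, 21.5% were lower and 17.1% higher, so the share of repair genes that were lower, 26.5%, was near that background. The median difference over the 36 genes was -0.28. The 9 were Brca1, Palb2, Rad51ap1, Exo1, Fanca, Fancd2, Chek2, Parp1 and Xrcc6, and the 2 were Trp53bp1 and Ung. Of 11 proliferation genes, 8 were also lower in resting NK cells, with a median log2 difference of -3.22 over the 11, and their part in these differences was not tested. Splenocytes are a mixture of cell types, and their chips also held signal of T cell and erythroid markers. The sum of 9 T cell markers lay between 64155 and 79193 on splenocyte chips and between 3733 and 5237 at rest, and that of 5 erythroid markers between 124356 and 155971 on splenocyte chips and between 180 and 511 at rest.

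The 4 genes lowest against splenocytes were Rad51ap1, Fancd2, Fanca and Chek2. Rad51ap1 read 297 to 448 in resting NK cells against 1684, 1466, 1774 and 1999 on the splenocyte chips, 4.75-fold lower (log2 difference -2.25 ± 0.25 SE, 3 NK samples against 2 splenocyte samples, limma adjusted p = 2.2e-04). Fancd2 read 622, 720, 1049 and 1465 in splenocytes, and resting NK cells were at least 3.97-fold lower (limma adjusted p = 0.0029). Fanca read 2244, 2732, 2940 and 3183 in splenocytes and was 3.84-fold lower in resting NK cells (limma adjusted p = 5.8e-04). Chek2 read 2250, 1624, 2008 and 2617 in splenocytes and was 2.84-fold lower (limma adjusted p = 0.0016). Every resting NK value of these genes lay below every splenocyte value. Chek1 read 883, 629, 783 and 918 in splenocytes and did not pass (log2 difference 0.12, adjusted p = 0.72 by limma), while 1 of its 2 other tested probe sets was lower in resting NK cells, by a log2 difference of -1.18. The calls for these 4 lower genes held under all alternative settings. Palb2 was lost under 10 of them, among them without resting sample 1 or 2 or without splenocyte chip 2, 3 or 4, and Parp1 without resting sample 2 or 3 and without the filter on low signals. Brca1, Exo1 and Xrcc6 were lost when probe sets were averaged.

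Trp53bp1 was the gene furthest above splenocytes. Its splenocyte chips read 5855, 5765, 5154 and 5618, so the resting NK signals of 21491 to 22958 were 3.96-fold higher (log2 difference 1.99 ± 0.17 SE, limma adjusted p = 6.8e-05). None of its 5 other probe sets passed in this comparison, with log2 differences from -0.72 to 0.73, and with probe sets averaged the call was lost. Ung read 1164, 1183, 1150 and 1343 in splenocytes and was 2.05-fold higher in resting NK cells (log2 difference 1.04 ± 0.30, limma adjusted p = 0.025). The Ung call was lost without resting sample 1 or 2 and without the filter on low signals.

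After 24 h with IL-15, NK cells held more of every recombination gene tested than splenocytes did. Of 35 genes tested, 21 were higher, where 20.8% of all 12465 genes tested were higher, and 0 were lower, where 23.5% of all were. An unadjusted p under 0.05 was found for 25 of the 35, and for 6431 of all 12465. The median difference over the 36 was 0.72. All 9 recombination genes tested were among the 21, and of 7 Fanconi anaemia genes 2 were. Of these 9, Palb2 passed narrowly (limma adjusted p = 0.049) and was lost under 8 of 16 alternatives. Brca2 was lost under 3 of 16, and Brca1 when probe sets were averaged. Without IL-15 sample 1, 12 genes were higher. This comparison shares its arrays with the others, so its counts do not stand apart from theirs. Of the 11 proliferation genes, 5 were higher and 1 lower than in splenocytes.

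Ung led, at 13.6-fold above splenocytes (log2 difference 3.77 ± 0.30 SE, limma adjusted p = 4.2e-05), followed by Chek1 at 11.6-fold (3.53 ± 0.23, limma adjusted p = 1.5e-05). Rad54l, which read 875, 1044, 1190 and 1294 in splenocytes, was 7.18-fold higher (2.84 ± 0.27, limma adjusted p = 1.2e-04), and Rad51ap1 was 5.33-fold higher (2.41 ± 0.25, limma adjusted p = 1.4e-04). Every IL-15 value of these genes lay above every splenocyte value. Trp53bp1 was 2.74-fold higher (limma adjusted p = 2.9e-04), but 2 of its 5 other probe sets were lower, by log2 differences of -1.21 and -1.23, and the average of its probe sets turned the sign to -0.19. Fanca, Fancd2 and Chek2 did not pass, at log2 differences of -0.58, 0.10 and -0.65 (limma adjusted p = 0.1, 0.84 and 0.056). The calls that held under all settings were those of Blm, Chek1, Exo1, Msh6, Rad51ap1, Rad54b, Rad54l, Ung, Xrcc3 and Xrcc5.

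**Figure D5:**
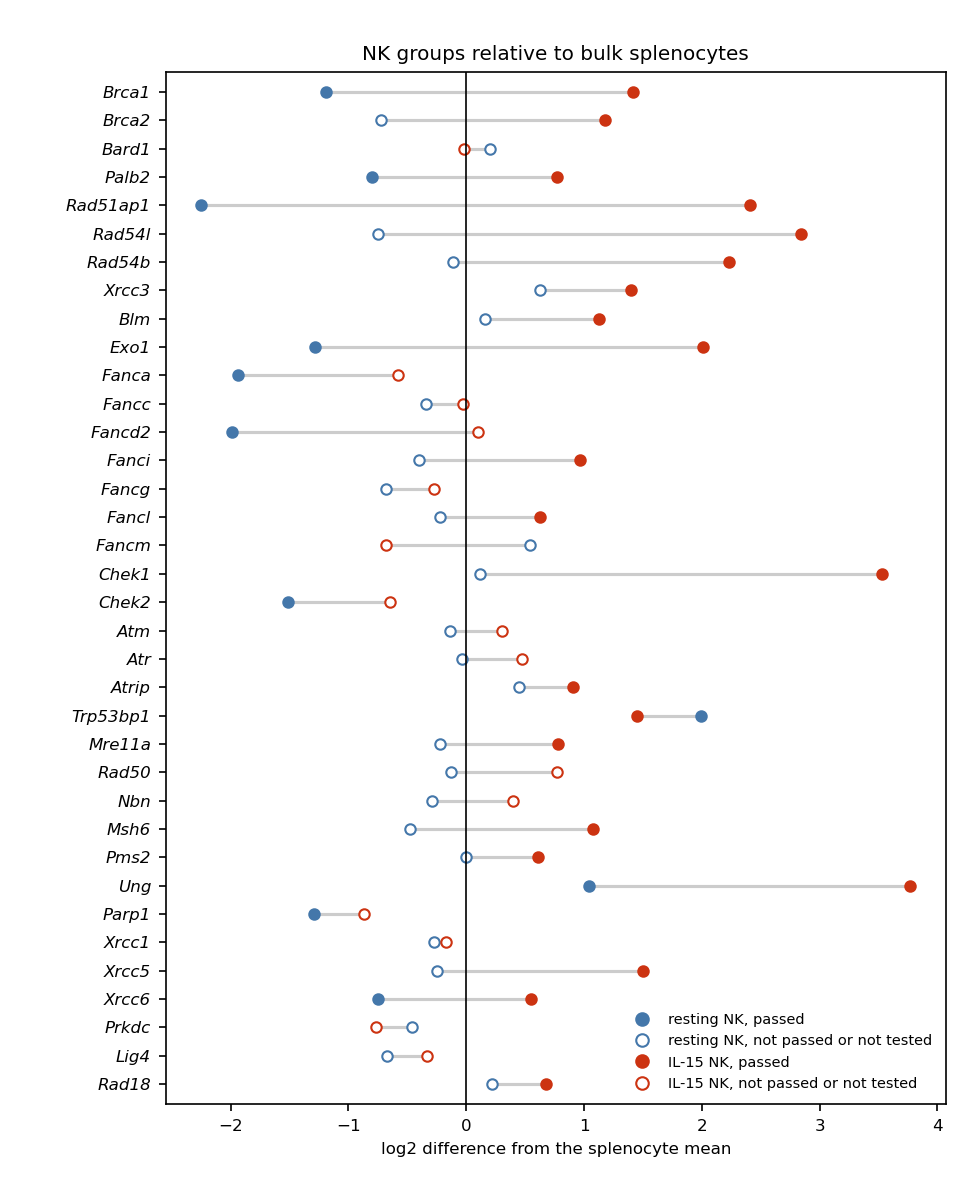
For each of the genes (y axis), log2 differences from splenocytes (x axis) are drawn for resting NK cells and for IL-15 NK cells; both share the same 4 splenocyte chips. Rad51ap1 goes from -2.25 at rest to 2.41 with IL-15, Chek2 from -1.51 to -0.65, and Trp53bp1 is above 0 in both, at 1.99 and 1.45.

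Set side by side, the 3 comparisons, which share their arrays, sort the genes into a few patterns of calls. A group of 9 rose with IL-15 and ended above splenocytes from a resting level that did not pass as different: Brca2, Rad54l, Blm, Fanci, Fancl, Chek1, Mre11a, Msh6 and Xrcc5. A group of 5 started below splenocytes and ended above them: Brca1, Palb2, Rad51ap1, Exo1 and Xrcc6. These patterns held 25.7% and 14.3% of the 35 genes tested with IL-15, beside 5.55% and 1.02% of all 11433. Not all calls in these 2 groups are firm. In the group of 9, Fanci with IL-15 against splenocytes was lost under 6 of 16 alternatives. Mre11a and Brca2 were each lost there under 3 of 16, and Fancl under 2. The group of 5 had losses too. Against splenocytes, Palb2 was lost under 10 of 16 alternatives at rest and under 8 of 16 with IL-15. Xrcc6 was lost under 7 of 16 with IL-15. With probe sets averaged, Brca1 passed against splenocytes neither at rest nor with IL-15, and Exo1 did not pass at rest. The 3 genes Fanca, Fancd2 and Chek2 started below and rose, with a final level that did not pass as different from splenocytes, a pattern of 3.47% of all genes. For Fancd2 this rests on the probe set used: another was not called lower at rest (log2 difference -0.50) and was higher than splenocytes with IL-15 (limma adjusted p = 0.0036). A further 9 passed in no comparison: Fancc, Fancg, Fancm, Atm, Atr, Nbn, Xrcc1, Prkdc and Lig4, where 38.7% of all genes did so. Of the 20 genes that rose, 17 had a resting mean below the splenocyte mean (85%), as did 68.6% of all 1619 genes that rose; the same resting arrays enter both comparisons, so a low resting mean favours both. Xrcc3, Atrip, Pms2 and Rad18 passed in 1 comparison, as higher in IL-15 NK cells than in splenocytes. That call held throughout for Xrcc3, but was lost under 9 of 16 alternatives for Atrip, 7 for Rad18 and 5 for Pms2. Of the 36 genes 14 have 1 probe set, and the 36 have 82 in all. Of the 8 risen genes with other tested probe sets, all the others rose too for 3 and 0 had one that fell, while Brca1, Rad51ap1, Rad54l, Mre11a and Rad50 had at least 1 that did not pass.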

How the data were processed

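RNA was hybridised to 10 one-colour MOE430_2 arrays. The values the authors deposited are linear intensities, 1 for each probe set on each array. The submitters' processing notes name GCOS 1.4. How probes were summarised, and to which target arrays were scaled, is not given in the sources used here. The deposited arrays shared 1 mean signal after trimming 2% at each end, so no further scaling was applied, and a change in total RNA per cell cannot be seen. Of 45101 probe sets, 34945 had 1 gene symbol in GEO's platform annotation, 932 several and 9160 none, and 64 were controls. The probe set brightest on average (log2, all arrays) stood for its gene. Signals below the floor (179.9) were set to it, and testing needed 3 arrays above the floor among those compared. A fold is a ratio of geometric means, and is a lower bound where the dimmer group has a floored array.

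Tests used limma 3.58.1 in R 4.3.3 (lmFit, eBayes with trend, 2-sided, Benjamini-Hochberg over all genes tested, 0.05), after a check on simulated data. IL-15 and resting NK cells were fitted on their 6 arrays. For splenocytes all groups shared 1 variance, the 4 chips were averaged in pairs under each of 3 possible pairings, and the largest p was kept. The NK samples are biological replicates per the series' design text. The number of arrays limits the precision. The genes and lists were chosen with earlier results of these data known. Values by array are given for up to 3 genes per role that passed with the largest differences (the brightest where none passed), for up to 4 each way against splenocytes, and for some others chosen after their values were seen; further repair genes named are the 5 largest each way among those that passed. Alternatives were the floor, the filter, the trend, the scaling, the probe set rule, the fit and each array left out.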

Additional observations from a re-analysis of the deposited data

Results flagged for a closer look

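Of the 36 genes, 3 had 1 splenocyte chip that stood apart from the other chips, by Dixon's ratio of its gap to the range. Chance alone sets apart about 1 in 20 such groups if their values are independent. Msh6 was at 12.07 (log2) on chip 4, with the nearest other chip at 11.73 and the lowest at 11.67. Rad54b was at 7.92 on chip 4 and Bard1 at 7.57 on chip 3, with the other chips at the floor of 7.49 in both cases. With the other chips floored, the ratio is 1 at any height of the remaining chip. The rate of 1 in 20 therefore does not apply to Rad54b and Bard1.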

How the results depend on the processing

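In IL-15 NK against resting NK cells, 13 of the 20 rises passed under every alternative in which the gene was tested. For Rad54b these were 12 of the 15, since among NK arrays it was above the floor on the 3 IL-15 arrays only. The count that rose was 16 to 20 with 1 array left out. The count that fell, 0 as reported, was 1 with the floor at the 60th percentile, 1 with quantile normalization, 1 with probe sets averaged, 1 with all 3 groups in 1 fit, and 0 to 2 with 1 array left out. With the replicate number as a block, 20 rose and 1 (Fancm) fell. The series' design speaks of pairs, but deviations of same-numbered samples correlated at 0.10, 0.28 and 0.07, not all above 0.1. Resting samples 1 and 2 correlated best with the IL-15 sample of their number, but resting sample 3 with IL-15 sample 1. The numbers were therefore not taken as pairs in the main test, though this check cannot exclude pairing. In resting NK cells against splenocytes, 4 of 11 calls passed throughout; the higher count (2) was 1 without the filter on low signals, 1 with probe sets averaged and 1 to 2 with 1 array left out, and the lower count 7 to 10. In IL-15 NK cells against splenocytes, 10 of 21 calls passed throughout; the lower count (0) was 1 with the floor at the 60th percentile, 1 without the trend, 1 with quantile normalization, 2 with probe sets averaged, 4 with the chips as 4 samples, 2 with only both groups compared fitted, and 0 to 1 with 1 array left out. The higher count was 12 to 18 with 1 array left out, lowest without IL-15 sample 1. The sign of Trp53bp1 turned there to -0.19 with probe sets averaged. Over all genes, testing without the filter gave 969 higher and 677 lower with IL-15 in place of 1619 and 1384. Quantile normalization moved the median of all genes from -0.06 to 0.05 for resting NK and from -0.10 to 0.11 for IL-15 NK cells against splenocytes. Genes near the floor, such as Bard1 and Rad54b, have the least certain values.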

Other observations

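For several genes whose probe set used here did not pass, another probe set of the gene did. In resting NK cells against splenocytes, a second probe set was lower for Atm (log2 difference -0.76) and Fancg (-1.16) and higher for Pms2 (1.92). The Atm probe set was also lower in IL-15 NK cells than in splenocytes, at -0.57. For Parp1, a second probe set rose with IL-15 by 1.23, while the one used differed by 0.42. For Trp53bp1, a second probe set was lower with IL-15, at -1.38. For Rad18, whose probe set used was higher in IL-15 NK cells than in splenocytes, 1 other probe set was higher, at 1.76, and 1 was lower, at -1.44.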
